A study of Homo sapiens with 11 samples.

Results

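Chromatin bound by the remodeller CHD4 was mapped in SK-N-MC, an established Ewing sarcoma cell line, by chromatin immunoprecipitation and sequencing (ChIP-seq). CHD4 was pulled down from wildtype cells with the M2 antibody against a Flag tag. The sources used here do not say how the tag was introduced or how much tagged CHD4 the cells held beside untagged CHD4. All 13288 peaks of the deposited CHD4 list were taken, out of 134925 peaks in 9 lists. The other 8 lists came from wildtype SK-N-MC cells too, with 1 sample each for the NuRD subunits MTA2, HDAC2 and RBBP4, for FLI1, and for the histone marks H3K4me1, H3K4me3, H3K27ac and H3K27me3, and they served to annotate the CHD4 peaks. The 2 input libraries were not analysed here. With 1 CHD4 sample there is no spread between cultures, so the comparisons below set groups of peaks side by side and carry no test. Intervals in brackets are 95% intervals and cover counting error only.

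CHD4 is a motor protein of the chromodomain helicase family that uses ATP to slide nucleosomes along DNA. It is the remodelling ATPase of the NuRD complex, in which HDAC2 removes acetyl groups from histones, MTA2 is a scaffold, and RBBP4, which other chromatin complexes also contain, binds histones. Ewing sarcoma is driven by EWSR1::FLI1, a fusion that binds GGAA repeats and opens distal enhancers, and antibodies to the FLI1 end detect it. Of the histone marks, H3K4me3 is typical of promoters and H3K4me1 of enhancers, H3K27ac is found at both when they are active, and H3K27me3 covers chromatin repressed by Polycomb.

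The label of the cells was checked against marks at gene starts. Of 8 Ewing sarcoma markers, 7 (CCND1, LIPI, NKX2-2, NR0B1, PAPPA, PRKCB and STEAP1) had both H3K4me3 and H3K27ac within 1 kb of a start, and CD99 had neither. None of 12 muscle markers carried either mark there. Of 14 blood markers only CD79A had H3K27ac, and of 14 epithelial markers only KRT18 had both marks. The numbers in the CHD4 peak names ran without a gap, whereas 6 of the other lists had gaps.

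The 5 promoters below lay under the strongest CHD4 peaks that reached the 250 bases before a listed gene start, and they show how unlike each other such promoters were. The sequences are from RefSeq (GRCh38.p14), 5′ to 3′ on the gene's strand, ending at the base before the start. Capitals mark a match, on either strand, to any of the motifs searched. These were the ETS core GGAA, which FLI1 reads, when repeated at least 2 or 3 times in a row, and the longer ETS site searched with the letters CCGGAAG. Among general promoter elements, the GC box was searched with the letters GGGCGG. The CCAAT box, which the factor NF-Y reads, was searched under that spelling. The TATA box was searched with the letters TATAAA. The E-box of basic helix-loop-helix factors was searched with the letters CACGTG. The AP-1 site, read by pairs of FOS and JUN proteins, was searched with the letters TGANTCA. The ETS patterns share their GGAA core, so they can overlap.
NFAM1: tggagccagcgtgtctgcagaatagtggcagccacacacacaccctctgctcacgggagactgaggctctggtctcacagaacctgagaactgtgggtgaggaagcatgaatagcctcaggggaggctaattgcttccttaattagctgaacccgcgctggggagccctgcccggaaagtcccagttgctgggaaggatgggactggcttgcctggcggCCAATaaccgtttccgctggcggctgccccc
FCGRT: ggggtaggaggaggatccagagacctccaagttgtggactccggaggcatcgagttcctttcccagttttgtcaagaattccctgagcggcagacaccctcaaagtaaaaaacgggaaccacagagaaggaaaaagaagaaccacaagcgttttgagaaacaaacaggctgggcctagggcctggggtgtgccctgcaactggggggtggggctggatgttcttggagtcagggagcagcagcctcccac
IFI44L: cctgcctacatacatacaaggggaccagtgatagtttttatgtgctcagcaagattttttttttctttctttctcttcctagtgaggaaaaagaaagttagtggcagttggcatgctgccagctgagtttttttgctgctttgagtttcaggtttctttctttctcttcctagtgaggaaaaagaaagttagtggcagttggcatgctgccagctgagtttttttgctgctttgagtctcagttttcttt
CACNA1I: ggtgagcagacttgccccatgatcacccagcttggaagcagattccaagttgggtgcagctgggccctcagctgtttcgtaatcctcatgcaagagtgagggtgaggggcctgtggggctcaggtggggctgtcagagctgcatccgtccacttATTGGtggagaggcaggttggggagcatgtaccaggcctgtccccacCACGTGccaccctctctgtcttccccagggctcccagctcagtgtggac
VPS37D: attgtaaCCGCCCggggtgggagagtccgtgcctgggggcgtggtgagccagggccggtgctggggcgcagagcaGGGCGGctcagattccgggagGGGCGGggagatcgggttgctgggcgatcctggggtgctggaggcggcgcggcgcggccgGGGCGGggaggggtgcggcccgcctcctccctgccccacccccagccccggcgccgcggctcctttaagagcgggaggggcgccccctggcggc
NFAM1, an adaptor with an immune signalling motif, has its promoter at chr22:42437987-42438236 on the minus strand. Its CHD4 peak had a fold enrichment of 8.73 (7.15 to 10.6), overlapped HDAC2, MTA2 and RBBP4, and overlapped none of the histone mark lists. FCGRT, the neonatal Fc receptor, starts after chr19:49512411-49512660 on the plus strand, with CHD4 at 8.16 (6.33 to 10.4) and overlaps with all 3 subunits, FLI1, H3K27ac and H3K4me3. None of the motifs searched was found in it. The promoter of the interferon-induced gene IFI44L, chr1:78620198-78620447 on the plus strand, also had no match, held no CpG and repeated a stretch of 85 bases exactly. Its CHD4 peak reached 8.12 (5.97 to 10.8) and overlapped HDAC2, RBBP4, H3K27ac and H3K4me3. CACNA1I, a T-type calcium channel, has 1 CCAAT box and 1 E-box in chr22:39570503-39570752, under a CHD4 peak of 7.83 that overlapped FLI1, H3K27ac and H3K4me1. VPS37D, an endosomal sorting protein, stands at the other end of base composition: chr7:73667581-73667830 held 27 CpG and 4 GC boxes at 78.0% G and C, against 40.4% for IFI44L, and its CHD4 peak of 7.81 overlapped HDAC2 and MTA2 but no mark.

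Promoters under CHD4 peaks were richer in G and C than promoters as a whole. CHD4 peaks overlapped 1307 of the 22132 listed promoters, belonging to 1142 genes. Their median content of G and C was 66.0% (quartiles 57.6 and 72.4%) against 62.0% (52.0 and 70.4%) over all promoters, with a median of 21 CpG against 16. The GC box was present in 67.6% of them (all promoters 53.7%), the CCAAT box in 28.5% (32.7%), the TATA box in 5.74% (8.996%), the ETS site in 9.49% (10.7%), the E-box in 6.35% (7.37%) and the AP-1 site in 4.13% (5.35%). GGAA repeated at least 2 times stood in 4.28% of them (3.31 to 5.52%) against 3.14% of all. Among the 262 of these 1307 promoters whose peaks were highest in fold enrichment, this share was 6.87% (4.39 to 10.6%), and the share with the ETS site was 4.20%. In these 262 the median content of G and C was 63.0% (quartiles 50.5 and 72.3%), with a median of 18 CpG. The GC box was present in 57.3% of them (51.2 to 63.1%) and the TATA box in 9.16%. Promoters of 1 gene can overlap each other, so these counts are not independent, and a match says only that the letters are there.

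Each CHD4 peak comes with a fold enrichment and a −log10 p at its summit, the highest point of the peak, both from the authors' peak caller. The fold enrichment has a median of 4.65 (quartiles 3.92 and 5.59, range 1.98 to 13.7) and the width a median of 325 bp (228 and 512, range 163 to 6679). Under the usual definitions of MACS2, the peak caller named in the peaks, these values also give the number of sequenced fragments stacked at the summit. For all 13288 peaks a whole number of fragments gave the deposited −log10 p within 0.001, and the largest misfit was 0.000273. The median peak had 46 fragments at its summit (quartiles 37 and 57, range 18 to 326) over a local background of 8.91 (6.69 and 12.3). The background was a whole multiple of 0.371, within 0.02 of a step, in 77.1% of peaks. At this depth the upper bound on a typical fold enrichment was 1.80 times the lower bound, with the background taken as given. Fragments are not counted by molecular identifiers, so copies made by PCR may be among them.

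Of the peaks, 13263 lay on chromosomes 1 to 22 and X, and all shares below are of these. The remaining 25 were 5 peaks on the mitochondrial genome, among them the widest of the list, and 20 on unplaced sequences. The highest count of 326 fragments was reached by 2 peaks, and it is exactly 2 times the smallest peak width.

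CHD4 was mostly found away from gene starts. Only 2231 peaks (16.8%, 16.2 to 17.5%) had their summit within 1 kb of the start of a protein-coding gene. A further 5146 lay inside a gene and 5886 between genes, and the median distance to the nearest start was 28.8 kb (quartiles 4.11 and 106 kb). Starts were listed for 15812 of 19974 genes. The other 4162, with all genes of chromosome 8 among them, were counted at both annotated ends.

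Peaks at starts and far from them differed in their background more than in their CHD4 fragments. At starts the median summit had 51 fragments over a background of 11.9, a fold enrichment of 3.97. The 556 peaks over 500 kb from any start had 40 fragments over 6.73, a fold enrichment of 5.32. H3K4me3 overlapped 80.95% of the CHD4 peaks at starts and 2.52% of the most distant ones, and H3K4me1 overlapped 5.56% and 36.9%. FLI1 overlapped 8.50% of all CHD4 peaks, and this share went from 1.03% of the peaks at starts to 8.41% at 5 to 50 kb and 17.6% beyond 500 kb. The share with all 3 of HDAC2, MTA2 and RBBP4 was 40.3% at starts and between 35.6% and 38.4% in each of the more distant bands.

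**Figure D1:**
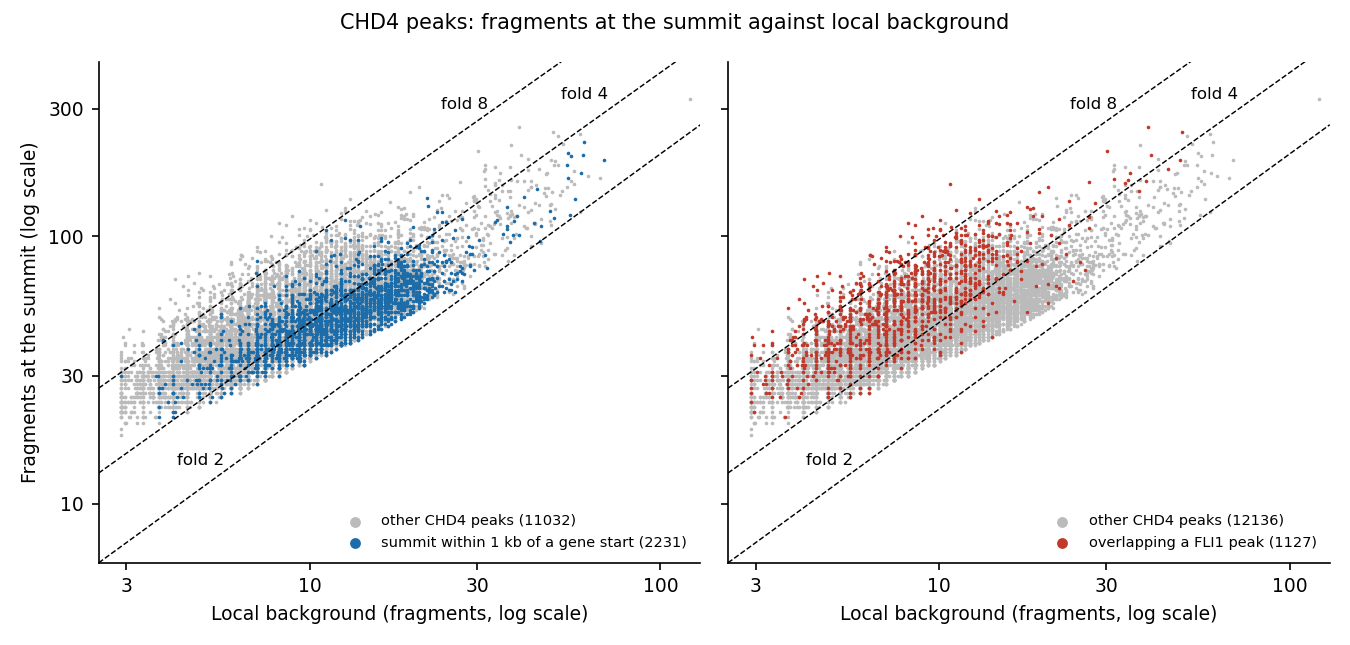
Fragments at the summit (vertical, log scale) against local background in fragments (horizontal, log scale) for 13263 CHD4 peaks, 1 point each, with dashed lines of equal fold enrichment. Peaks within 1 kb of a gene start (left, blue) lie to the right, at a median background of 11.9, and those overlapping FLI1 (right, red) lie toward the upper edge, at a median of 55 fragments over 7.80.

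At gene starts with a listed strand, CHD4 summits lay upstream more often than downstream. Of 1842 CHD4 summits within 1 kb of such a start, 66.6% (64.4 to 68.7%) were upstream, with a median position of −112.5 bp (quartiles −310 and 78 bp). MTA2 summits were more tightly placed, with 78.0% upstream and 73.2% within 200 bp of the start, against 45.5% of CHD4 summits within 200 bp. RBBP4 summits had a median of −42 bp with 60.3% upstream. HDAC2 summits had a median of 42 bp with 42.7% upstream, and H3K4me3 summits a median of 235 bp with 24.7% upstream.

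**Figure D2:**
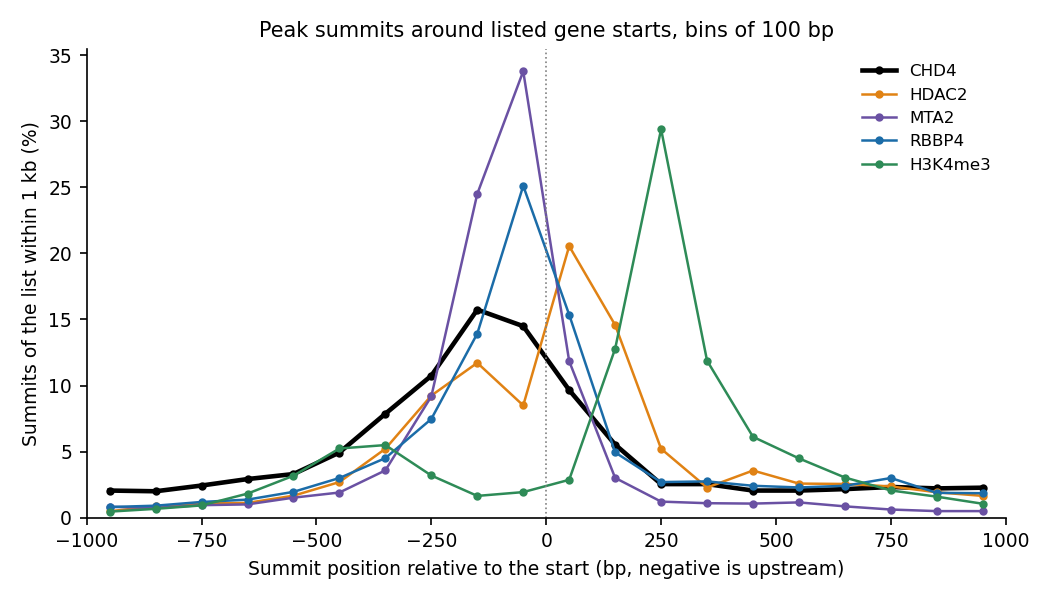
Share of each list's summits within 1 kb of a listed start (vertical, %) by position in bins of 100 bp (horizontal, negative is upstream), for CHD4 (black), HDAC2, MTA2, RBBP4 and H3K4me3. The CHD4 curve is broad with a median of −112.5 bp, upstream of the medians of HDAC2 (42 bp) and H3K4me3 (235 bp).

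Genes without a listed start, here LYVE1, KDELR2 and KLRC4-KLRK1, were counted at either end, which may not be the start. Among starts and such ends, the gene with the strongest peak was LYVE1. This hyaluronan receptor of lymphatic endothelium had 81 fragments over a background of 7.06 near an annotated end, a fold enrichment of 10.2 (8.11 to 12.6), with FLI1, H3K27ac and H3K4me1. KDELR2, a receptor that returns proteins to the endoplasmic reticulum, followed at 9.22 (7.26 to 11.6) with H3K27ac and H3K4me3 and without FLI1. GUCY2F, a photoreceptor guanylate cyclase, stood at 8.72 with FLI1 and H3K27ac. NPAS4, a transcription factor induced by neuronal activity, had 115 fragments and a fold enrichment of 8.51, and SYT16 30 fragments and 7.95. The peak at NPAS4 overlapped HDAC2 and RBBP4 and no mark, and that at SYT16 only RBBP4. KLRC4, an NK cell receptor gene, and the readthrough gene KLRC4-KLRK1 shared a peak of 8.06 that overlapped MTA2 and H3K4me1. NFAM1, FCGRT and IFI44L, whose promoters are printed above, complete the 10 highest. Of these 10 genes, 3 had a peak that overlapped FLI1.

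The peaks of highest fold enrichment lay away from gene starts, in acetylated chromatin with FLI1. All of the highest 10 overlapped HDAC2, MTA2, RBBP4, FLI1 and H3K27ac, 9 overlapped H3K4me1 and none overlapped H3K4me3 or lay within 1 kb of a start. Over all CHD4 peaks the shares were 63.5% for HDAC2, 54.3% for MTA2, 61.7% for RBBP4, 8.50% for FLI1, 45.8% for H3K27ac, 36.0% for H3K4me1 and 22.9% for H3K4me3. The highest peak, chr14:103775582-103776860 inside PPP1R13B, had 69 fragments over a background of 4.12, a fold enrichment of 13.7 (10.7 to 17.3). PPP1R13B encodes ASPP1, which binds p53. The next, chr7:31341780-31344786, stood 3.07 kb from NEUROD6, a neuronal transcription factor, with 157 fragments over 10.8 and 13.4 (11.4 to 15.7). Peaks of 13.1 and 12.7 lay 255 kb from LOC647264 on chromosome 13 and inside SRRM4, a neuronal splicing factor, on chromosome 12. The peak between LIPI and RBM11 on chromosome 21 reached 12.3, and that beside UGT3A2 on chromosome 5 reached 12.1. A peak on chromosome 4 with HNRNPD nearest, at 202 kb, also had 12.3. The last 3 were on chromosomes 3 (12.01), 9 (11.8) and 20 (11.7). Their nearest genes were RETNLB at 37.9 kb, LINGO2 at 822 kb and MMP9 at 12.8 kb. The peak on chromosome 20 was tied in fold enrichment, fragments and background with the peak near ABHD6 on chromosome 3, which also overlapped the 3 subunits, FLI1, H3K27ac and H3K4me1. Counting error does not order them: 344 peaks had an upper bound that reached the lower bound of the highest peak, all of these 10 included.

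Without FLI1, fold enrichment was nearly as high at a few sites. The 5 strongest such peaks lay inside ZNF704 (11.7), PIP5K1B (11.5) and OXCT1 (11.3), with NDST4 nearest (11.4) and with FAM209A nearest (11.1). Of these, 4 overlapped all 3 subunits, and the peak in ZNF704 overlapped MTA2 and RBBP4 but not HDAC2. The peaks in ZNF704 and OXCT1 had H3K27ac, those at PIP5K1B, NDST4 and OXCT1 had H3K4me1, and that near FAM209A had no mark. FLI1 overlapped 100% of the 10 strongest CHD4 peaks, 65.0% of the strongest 100, 38.7% of the strongest 1000 and 8.50% (1127) of all. The FLI1 list holds only 1561 peaks against 13288 of CHD4, so its size limits the share over all CHD4 peaks.

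CHD4 peaks that overlapped FLI1 were higher and wider than the rest. Their median fold enrichment was 6.30 (quartiles 5.12 and 7.60) against 4.55 (3.86 and 5.43), with 55 fragments against 45 at the summit and a background of 7.80 against 8.96. The median width was 765 bp against 310 bp. FLI1 overlapped 1.94% of the 2059 peaks of at most 200 bp, 14.0% of those of over 500 to 1000 bp and 84.8% of the 92 peaks over 2000 bp. Width thus moved with the overlap, and its part in it was not tested. When the CHD4 summit itself had to lie inside the FLI1 peak the share over all peaks was 4.07%. The 5 widest peaks on the chromosomes measured 3525 to 3814 bp. They lay 67.4 kb from MYC, 169 kb from LMX1A, inside MAPT, inside HOOK1 and 8.68 kb from SH2B3. All 5 overlapped the 3 subunits, FLI1, H3K27ac and H3K4me1. The peak with MYC nearest had 192 fragments over a background of 48.7 and so a fold enrichment of only 3.89. The peak inside MAPT, the gene of tau, had 86 over 9.66 and 8.16.

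Ranked by fold enrichment, gene starts fell to the bottom of the list. From the weakest quintile to the strongest, the share near a start went through 33.8, 21.9, 15.0, 9.13 and 4.26%, and H3K4me3 went from 43.8% to 7.12%. FLI1 went the other way, from 1.17% to 24.8%, and the share with all 3 subunits from 29.4% to 57.5%. The median number of fragments barely moved, at 49, 44, 42, 43 and 50, while the median background fell through 14.1, 10.0, 8.29, 7.26 and 6.31. Across peaks, Spearman's rho with fold enrichment was −0.02 for fragments and −0.63 for background over 13263 peaks, 2 quantities from which the fold itself is made. Ranked instead by fragments above background, a ranking added after these values were seen, the share near a start no longer fell with rank. It went through 9.88, 15.6, 20.2, 22.5 and 15.9%, highest in the quintile below the strongest, and that with H3K4me3 through 13.4, 21.3, 27.5, 28.5 and 23.5%. The FLI1 share still went from 3.84% to 19.5% and that of all 3 subunits from 11.1% to 73.2%. The H3K27ac share, 49.98% and 46.7% by fold enrichment, was 32.2% and 60.4% in this ranking. The H3K4me1 share went from 25.8% to 47.3% by fold enrichment, and this turned too when the summit had to lie inside the H3K4me1 peak, to a difference of −5.80 percentage points.

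**Figure D3:**
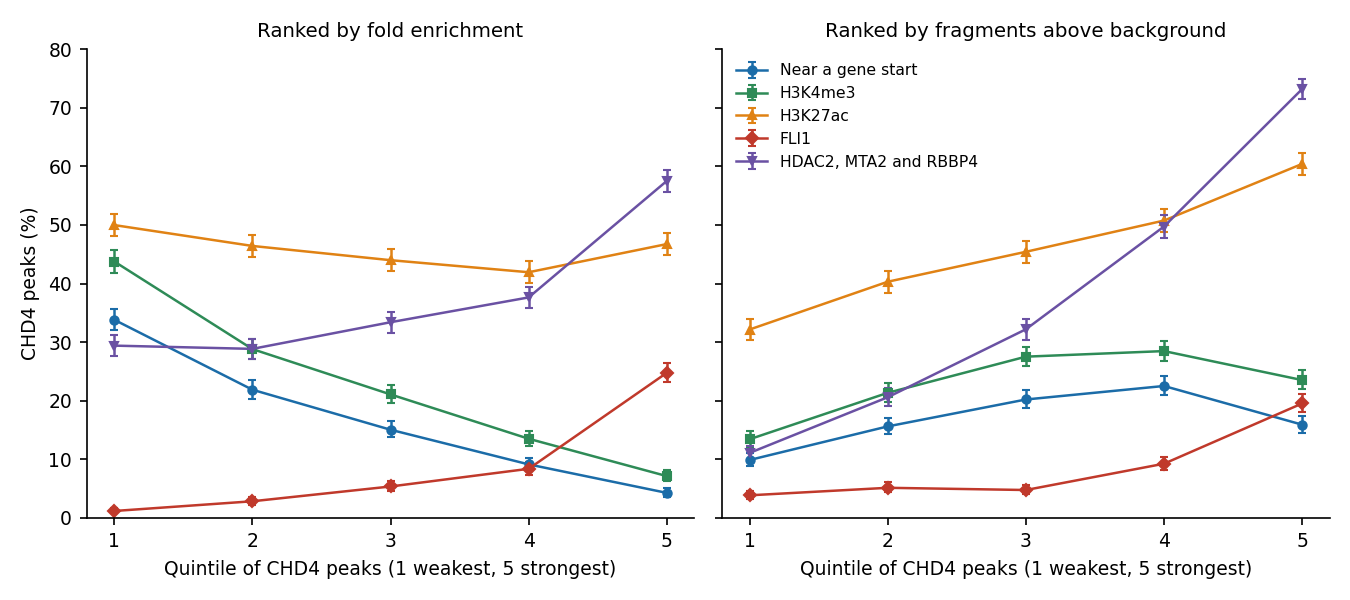
Share of CHD4 peaks (vertical, %) in each quintile of the list (horizontal), ranked by fold enrichment (left) or by fragments above background (right), with 95% Wilson intervals. The share near a gene start falls from 33.8% to 4.26% on the left, and on the right it climbs from 9.88% to 22.5% and is 15.9% in the strongest quintile, while the FLI1 share is highest in the strongest quintile in both.

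Most CHD4 peaks shared their site with other NuRD subunits. HDAC2 overlapped 63.5% of them (62.7 to 64.3%), RBBP4 61.7% (60.9 to 62.5%) and MTA2 54.3% (53.4 to 55.1%). All 3 were present at 4955 peaks (37.4%) and none at 2491 (18.8%). With all 3, the median summit had 55 fragments, a width of 492 bp and a fold enrichment of 5.00, and with none it had 38 fragments, 234 bp and 4.44. Width and fragments thus moved with the number of partner lists, and their part in the overlaps was not tested.

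The partner subunits present went with the kind of site. The 1346 CHD4 peaks with HDAC2 and RBBP4 but not MTA2 lay near a start in 36.0% and carried H3K4me3 in 53.9%, with H3K4me1 in only 12.48%. The 747 with MTA2 and RBBP4 but not HDAC2 were of the opposite kind, near a start in 5.76%, with H3K4me3 in 7.36% and H3K4me1 in 48.6%. The 1138 with RBBP4 alone carried H3K27ac in 22.6%, against 58.5% of the peaks with all 3 subunits. The 466 with MTA2 alone had H3K27ac in 48.5% and FLI1 in 7.73%, and the 1090 with HDAC2 alone had FLI1 in 1.74%.

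By histone marks, the largest class of CHD4 peaks had no mark peak at all. These 4121 peaks (31.1%) had a median fold enrichment of 4.81 with 40 fragments, and 22.2% of them overlapped all 3 subunits. H3K27ac overlapped 45.8% of CHD4 peaks, H3K4me1 36.0% and H3K4me3 22.9%. The 2501 peaks with H3K27ac and H3K4me1 held FLI1 in 21.2%, those with H3K4me1 alone (2073) in 5.16%, and those with H3K27ac and H3K4me3 (1870, of which 64.1% at starts) in 1.28%. The CHD4 summit itself lay inside an H3K4me1 peak at 13.1% of the CHD4 peaks. The H3K27me3 list was the shortest of the mark lists, with 3420 peaks against 16089 for H3K4me3, the next shortest. What its size does to the overlap was not tested. H3K27me3 overlapped only 12 CHD4 peaks (0.0905%). Of these, 5 were on chromosome 8, which held 5.82% of all CHD4 peaks. These 5 lay at 120 to 130 Mb, where the background was highest, at 19.6 to 35.7 fragments with fold enrichments of 2.81 to 3.94. Another 2 were in CDKN1A, the cell cycle inhibitor p21, whose stronger peak had 75 fragments and a fold enrichment of 6.26 (4.94 to 7.82) and also overlapped H3K4me3. The genes nearest to the others included TBX2, HOXA5 and SP9, named after their values were seen.

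There were 1165 peaks (8.78%, 8.31 to 9.28%) that overlapped none of the other 8 lists. They were narrow, with a median of 223 bp and 37 fragments, and their median fold enrichment was 4.52, close to that of the whole list. The strongest of them was unlike the rest: chr16:89186332-89187751 inside CDH15, the muscle cadherin gene, was 1420 bp wide with 72 fragments over 5.87 and a fold enrichment of 10.6 (8.34 to 13.3). The next 4 had 34 to 43 fragments. Of these, 1 lay in C1QTNF8 (9.16) and 1 in CAMK2D (8.82), and 2 of only 169 and 170 bp had uncharacterised genes nearest, LOC124900998 (9.75) and LOC102723475 (9.33).

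CHD4 peaks gathered in groups around some genes. Joined when less than 12500 bp apart, the peaks formed 9263 units, of which 6838 were single peaks and 170 held 5 or more (1020 peaks, 7.69%). In those 170 clusters 75.5% of peaks (72.8 to 78.0%) overlapped H3K27ac, against 32.4% (31.3 to 33.5%) of single peaks, and H3K4me1 overlapped 56.3% against 27.9%. FLI1 overlapped 13.6% against 5.24%. The peaks of a cluster are neighbours and were counted as independent, so the intervals for clusters can be too narrow. The median fold enrichment was alike, at 4.57 and 4.64, as was the share with all 3 subunits, at 38.7% and 36.4%. The largest cluster held 16 peaks over 37.4 kb of chromosome 8 with LRATD2 as nearest gene, and 15 overlapped H3K27ac and 1 overlapped FLI1. The next was of 13 peaks at BMF, a gene of a pro-apoptotic BCL2 family member, and 11 at PPP1R1A, an inhibitor of protein phosphatase, where the fold enrichment reached 8.32. Clusters of 10 stood at RIPK4, at HOXC4, HOXC5 and HOXC6, and at a second site of LRATD2. Both LRATD2 clusters lay at 120 to 130 Mb of chromosome 8, the window of highest background. Their median backgrounds were 29.7 and 31.9 fragments, and their median fold enrichments 3.56 and 3.42. Over the peaks of all clusters of 5 or more, these medians were 9.69 and 4.57. The HOXC cluster had no FLI1 peak and 3 peaks with H3K27ac, but 9 with H3K4me1 and 8 with all 3 subunits. APCDD1, a Wnt inhibitor, had 9 peaks, 4 of them with FLI1, and SH2B3, an adaptor of cytokine signalling, had 9, all with H3K27ac. A cluster with MAGEF1 nearest, outside any protein-coding gene, had 9. The cluster with PJA1 nearest, also outside any protein-coding gene, had 8, as did 10 other clusters. It was placed first among these by its strongest peak, which reached 10.5.

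The number of CHD4 peaks per gene differed between chromosomes, as did the background under the peaks. There were 114 peaks per 100 protein-coding genes on chromosome 6, 112 on chromosome 13 and 108 on chromosome 8, but 28.0 on chromosome 19 and 28.3 on X. By length, in windows of 10 Mb, chromosome 19 had 123 peaks in each of its first 2, among the 6 windows with most peaks. Chromosome lengths were not used here. The median background ran from 5.09 fragments on chromosome 18 and 5.20 on X to 10.8 on chromosome 8. Within chromosome 8 the high values lay toward 1 end. In windows of 10 Mb it was 31.4 at 120 to 130 Mb (211 peaks), 26.7 at 130 to 140 Mb and 19.7 at 140 to 150 Mb, whereas the next highest of the 236 windows with 20 or more peaks, on chromosome 1, had 14.5. The 341 peaks in these 3 windows had a median of 97 fragments, against 45 elsewhere, and still a median fold enrichment of 3.31 against 4.68, and 68.9% of them were in the weakest quintile. They were 8.86% of that quintile, and without them the difference between strongest and weakest quintile in the share near starts was −30.6 percentage points, against −29.6 with them. The 5 weakest peaks of all on the chromosomes lay on its long arm, with 92 to 123 fragments and fold enrichments of 2.03 to 2.15. The nearest genes were ASAP1, ZHX2 (at 107 kb), SQLE, TRIB1 and DEPTOR.

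**Figure D4:**
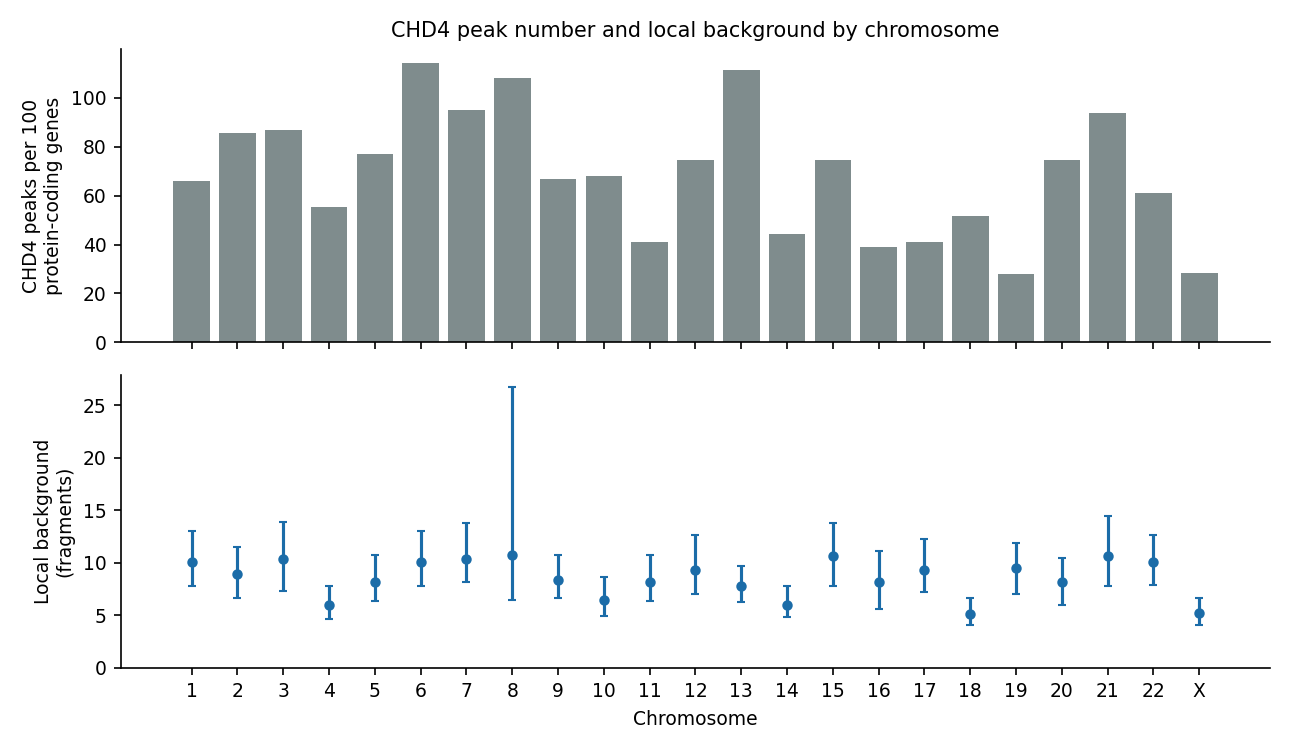
CHD4 peaks per 100 protein-coding genes (top) and local background in fragments under the peaks (bottom, median with quartiles) for chromosomes 1 to 22 and X. Chromosome 8 has a median of 10.8 with an upper quartile of 26.8, above that of every other chromosome, and chromosomes 18 and X have the lowest medians.

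Over all 19974 protein-coding genes, 9378 (47.0%) had a CHD4 summit inside them or within 50 kb, and 2063 (10.3%) had 1 within 1 kb of a start. These shares depend on gene length and on neighbours, and neighbouring genes can share a peak. The median over the genes with a peak of their strongest fold enrichment was 4.83. Against this background, 28 of 31 genes activated by EWSR1::FLI1 had a CHD4 peak in the window, with a median strongest fold enrichment of 6.97, and 18 had 1 near a start. The strongest value is a maximum, so it can rise with the number of peaks in a window, and this was not adjusted for in any list. The 31 genes had a median of 4 peaks and a median length of 36.2 kb. Over all protein-coding genes these were 0 peaks and 24.2 kb. The 28 genes drew on 156 peaks, of which 24 overlapped FLI1 and 118 overlapped H3K27ac, beside 8.50% and 45.8% of all CHD4 peaks. Their highest were the peak of 12.3 shared by LIPI, a lipase, and RBM11, an RNA-binding protein, UGT3A2 (12.1) and ABHD6 (11.7), a lipid hydrolase. Of 20 genes repressed by EWSR1::FLI1, 15 had a peak, with a median of 6.07, and 8 had 1 near a start. Of their 41 peaks, 1 overlapped FLI1, beside 8.50% of all CHD4 peaks. That was the peak near TGFBR2, the TGF-beta receptor, at 7.36. SPRY1, an inhibitor of receptor tyrosine kinase signalling, had the strongest at 10.3 (7.45 to 14.0) with 40 fragments over 2.97, followed after TGFBR2 by NR2F2 (6.88) and CDKN1A (6.26).

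Of 10 core factors of Ewing cells, 9 had a peak, with a median of 7.02, and 4 had 1 near a start. NKX2-2, a homeobox repressor that EWSR1::FLI1 switches on, had a peak of 9.48 with FLI1 at 33.0 kb from the gene. TCF4 reached 7.87 within the gene with RBBP4 as the only partner, APCDD1 7.75 and MEIS1, a HOX cofactor with 16 peaks in its window, 7.55. All 39 HOX genes had a peak, 12 near a start, but they share only 45 peaks. None of these 45 overlapped FLI1, beside 8.50% of all CHD4 peaks. The HOXD cluster had H3K27ac at 11 of 11 CHD4 peaks and H3K4me3 at 10, HOXA at 1 and 4 of 8, HOXB at 5 and 7 of 10, and HOXC at 7 and 3 of 16. Over all CHD4 peaks the shares were 45.8% for H3K27ac and 22.9% for H3K4me3. HOXC10 shared the highest peak, 6.43, with its neighbours HOXC4, HOXC5, HOXC6, HOXC8 and HOXC9.

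Of 15 NuRD subunit genes, 8 (53.3%) had a peak in the wider window and 3 had 1 near a start, with a median of 5.08. The strongest peak in the window was 5.76 for the CHD4 gene, 5.76 for MBD2, 5.14 for CHD3 and 5.12 for MTA1. Only the CHD3 peak of these lay inside its gene, and the others lay outside. No CHD4 summit lay inside the CHD4 gene or within 1 kb of its start. None of the 23 peaks overlapped FLI1, beside 8.50% of all CHD4 peaks. Among 25 other remodeller genes, 15 (60.0%) had a peak and 8 (32.0%) had 1 near a start, with a median of 5.22. CHD9 was highest at 9.22, followed by the BAF scaffolds SMARCC1 (7.76) and SMARCC2 (7.31), both with FLI1, and CHD6 (7.11).

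Among lists of other cell types and of common genes, the share with a peak ran from 42.9% for blood genes to 70.0% for mesenchymal genes, against 47.0% over all genes. Of 30 neural crest and neuronal genes 16 had a peak (4 near a start, median 5.01), led by the axon guidance receptor ROBO1 at 8.75, the adhesion molecule NCAM1 at 7.52, MSX2 at 6.60 and the neurofilament gene NEFM at 6.55. The peaks for ROBO1 and NCAM1 lay inside the genes, those for MSX2 and NEFM 3.69 and 26.7 kb outside. Mesenchymal genes had 14 of 20 (5 near a start, median 5.29), led by ACTA2, smooth muscle actin, at 7.05 with FLI1, PRRX1 at 5.93, COL6A1 at 5.73 and RUNX2 at 5.61. Muscle genes had 6 of 12 (4.62), led by CKM at 6.56, TNNI1 at 5.90, TNNT1 at 4.95 and ACTA1 at 4.28. These peaks lay outside the genes, at 29.9, 36.1, 24.9 and 0.217 kb. Blood genes had 6 of 14 (4.52), led by PTPRC, which encodes CD45, at 8.06 with FLI1, CD79A at 4.84, CD68 at 4.70 and GATA1 at 4.35. Again the peaks lay outside the genes, at 12.7, 46.9, 21.3 and 7.69 kb. Epithelial genes had 8 of 14 (4.40), led by GRHL2 at 7.46, CLDN4 at 6.75, TP63 at 5.23 and KRT8 at 4.54. Only the TP63 peak of these lay inside its gene, and the others lay 41.1, 18.8 and 25.8 kb outside. No member of the muscle, blood and epithelial lists had a CHD4 summit within 1 kb of a start, against 10.3% of all protein-coding genes. These lists are short.

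Housekeeping genes had 13 of 20 (3 near a start, median 5.35). High values lay outside the genes for the ribosomal protein gene RPL13A (8.16, the peak at FCGRT), B2M (7.85) and HPRT1 (6.05), and inside the gene for YWHAZ (5.71). Cell cycle and DNA damage genes had 15 of 25 (6 near a start, median 4.21), led by CDKN2A, the p16 gene, with a peak of 9.02 and FLI1 at 48.0 kb, CDK6 at 6.54, RB1 at 5.83 and ATM at 5.54.

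**Figure D5:**
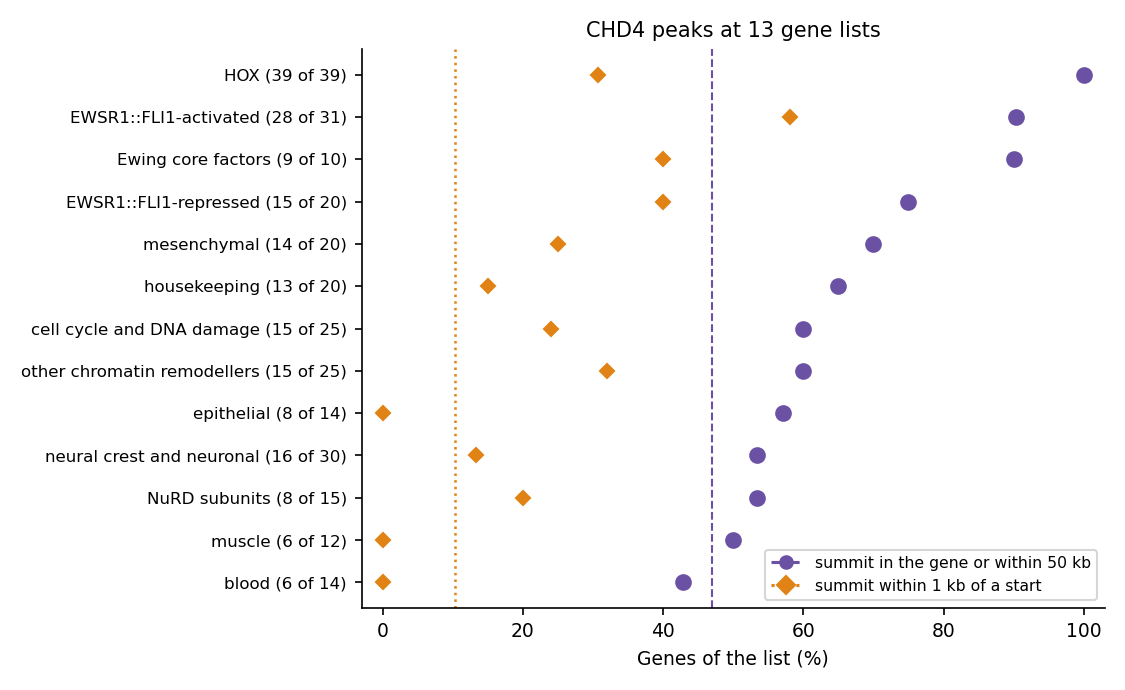
Share of the genes of each of 13 lists (horizontal, %) with a CHD4 summit in the gene or within 50 kb (circles) and within 1 kb of a start (diamonds), with the counts for the wider window beside the names. The dashed and dotted lines give the shares over all 19974 protein-coding genes, 47.0% and 10.3%, and HOX, EWSR1::FLI1-activated and core factor genes lie farthest above the dashed line.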

How the data were processed

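Peaks came from ChIP-seq in SK-N-MC, 1 sample per target and grouped by the target in the labels. Per the submitters' processing notes, the tools were BWA 0.7.17, bedtools 2.27.1, deepTools 3.2.1, FastQC 0.11.7, SAMtools 1.9 and Trimmomatic 0.36, with the build GRCh38. MACS2 is named in the deposited peak names. The sources used here do not state its version, the control library or any pooling. The deposited fold enrichment is a ratio at the summit and the deposited −log10 p is a significance value, both made by the authors' peak caller. The deposited −log10 q and score were not used.

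Fragments and background at each summit were recovered by finding the whole number of fragments for which the fold enrichment, with 1 added to fragments and background, gives the deposited −log10 p as a Poisson tail. This was tested on simulated data. Fold intervals are exact Poisson intervals on the fragments, and shares carry Wilson intervals, both at 95%. Library totals were not used here, so precision rests on the fragments at each summit. A list overlapped a CHD4 peak when they shared 1 bp. The gene table and promoters were from RefSeq (GRCh38.p14), and coordinates are 1-based. Python 3.11.15, numpy 2.4.6, pandas 2.3.3 and scipy 1.17.1 were used.

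The members, gene lists (275 entries, all 275 matched) and named items were chosen with earlier results of these data known. By rule the text names the 10 peaks of highest fold enrichment, the 10 genes with the strongest peak at a start (or end), the 10 largest clusters, up to 4 members per list (some members are not reported here), the 5 widest and the 5 weakest peaks, the 5 strongest without FLI1, and the 5 strongest overlapping no other list. The 5 promoters printed and the 3 genes near H3K27me3 were chosen after their values were seen. The alternatives are stricter peak sets, other windows, overlap rules, cluster gaps and measures of height.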

Additional observations from a re-analysis of the deposited data

How the results depend on the processing

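No paired analysis was possible because the CHD4 sample has no replicate. Of 75 values under alternative settings for 20 results, 17 stayed within the 95% interval of the main value (for a count, within 1.5 times it), 53 moved outside that limit without a change of sign, many by little, and 5 changed sign. The cause was not tested unless the setting itself gives it. With height measured as fragments above background (chosen after seeing the data), the difference between strongest and weakest quintile turned to 6.03 percentage points near starts (main −29.6), 10.1 for H3K4me3 (−36.6) and 28.3 for H3K27ac (−3.24), and became 15.7 for FLI1 (23.6), 26.9 for H3K4me1 (21.5) and 62.1 for all 3 subunits (28.1). With −log10 p as height H3K27ac turned to 15.98, and the differences became −11.7 near starts, −12.6 for H3K4me3, 27.9 for H3K4me1 and 59.5 for all 3 subunits. With the summit inside the other peak, H3K4me1 turned to −5.80, FLI1 became 10.9 and H3K4me3 −32.0. That rule lowered the overall shares to 4.07% (FLI1), 59.0% (HDAC2), 48.8% (MTA2), 54.97% (RBBP4), 32.0% (H3K27ac), 13.1% (H3K4me1), 18.0% (H3K4me3) and 31.5% (all 3 subunits). Covering at least 50% of the CHD4 peak gave 1.33, 58.0, 44.3, 49.2, 35.6, 15.96, 18.8 and 25.6% in the same order. With the 2000 peaks of highest −log10 p in every list (all 1561 for FLI1, whose list is shorter), they were 28.6, 37.0, 33.6, 54.7, 19.7, 21.9, 2.45 and 18.3%, with 8.0% near starts, a median fold enrichment of 6.51 and a width of 724 bp. Only peaks of −log10 p of at least 15 were then kept in every list, which left 8773 CHD4 peaks and shortened the other lists too. MTA2 was then 51.6%, RBBP4 49.1%, H3K4me1 35.0%, H3K4me3 20.4%, all 3 subunits 30.9% and the share near starts 15.1%. The median fold enrichment was 5.13 and the width 400 bp, with 54 clusters and a H3K4me1 difference of 14.2. With the other lists whole, the share with all 3 subunits went from 14.4% in the lowest quintile of CHD4 −log10 p to 74.0% in the highest. The share near starts was 20.5% within 2 kb, 23.4% with all genes of the table, 13.9% with only listed starts and 15.1% with either end of every gene (the last 2 chosen after seeing the data). Clusters of 5 or more numbered 72 when joined within 5 kb and 279 within 25 kb, and 5527 genes had a peak in or within 10 kb. Depth limits the list too: sites with few fragments cannot be told from sites without CHD4.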
